A study of Mus musculus with 6 samples.

Results

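Myeloid C-type lectin receptors are surface proteins of macrophages, dendritic cells and neutrophils that carry a C-type lectin-like domain. The 10 genes examined were chosen by name as known members of this group, out of 49585 genes in the count tables: Clec7a, Clec4a1, Clec4a2, Clec4a3, Clec4n, Clec4d, Clec4e, Clec5a, Clec12a and Clec9a. Their transcripts were counted by bulk RNA sequencing in microglia, the resident macrophages of the brain, from 3 wild-type (WT) mice and 3 mice labelled IRF8KO, a name for loss of the transcription factor gene Irf8. All 6 mice were male, aged 3 months and untreated, and each library came from 1 brain whose cells were freed without enzymes and sorted by flow cytometry. The sorting gate, the knockout allele and the strain were not given in the sources used here. Comparing IRF8KO with WT asks which receptor transcripts go with the genotype label.

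As background, these receptors bind sugars, glycolipids, crystals or material from dead cells, and they signal through short tyrosine motifs. Activating receptors either carry such a motif themselves or borrow one from the adaptors Fcer1g (FcRγ) or Tyrobp (DAP12). That leads through the kinase Syk and the adaptor Card9 to NF-κB and cytokine genes. Hcst (DAP10) is a further adaptor, which does not act through that route. Inhibitory receptors instead recruit the phosphatases Ptpn6 (SHP-1) and Ptpn11 (SHP-2). In microglia, Clec7a is widely used as a marker of the state seen around lesions and amyloid plaques.

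Some facts of the 6 libraries touch every value below. Gene counts summed to between 3658917 and 11098363 per library, with the lowest total in WT replicate 1. WT replicate 3 stood apart from the other WT libraries: counts of WT replicates 1 and 2 differed by a chi-square of 8.57 per degree of freedom over genes, but each of them differed from replicate 3 by 65.3 or more. IRF8KO replicate 2 held by far the most transcripts of neutrophil granules, such as S100a8 at 121 CPM (read counts scaled to a common library size by the TMM method) and Ngp at 79.1 CPM, where no other library exceeded 0.801 CPM for either. Smaller amounts of other such genes were read elsewhere, with Mmp9 at 3.04 CPM in IRF8KO replicate 1 and Lcn2 at 1.24 CPM in WT replicate 3. Apoe was read at 1182 to 3526 CPM in WT and 248368 to 485777 CPM in IRF8KO. These CPM values are TMM-scaled and are not its share of the gene counts. The difference is large enough that the choice of scaling matters. Irf8 itself was read at 1014 ± 335 CPM (SD, n = 3) in WT and 746 ± 99.7 CPM in IRF8KO, a difference that did not pass the test (log2 fold change −0.44, edgeR adjusted p = 0.368). With library size alone as the scaling it was called lower (log2 fold change −0.90, edgeR adjusted p = 0.00758), and without WT replicate 3 it was −0.11 (0.676). Reads summed over a whole gene cannot tell if a piece of it is missing, and the directions below therefore rest on the labels. In bulk RNA, more cells of a kind and more RNA per cell cannot be told apart.

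Of the 10 receptor genes, 8 had enough counts to be tested, 5 rose in IRF8KO, none fell, and 3 did not pass the test. The risers were Clec4n, Clec12a, Clec7a, Clec4a1 and Clec4d. Over all 11041 genes tested, 19.1% were called in either direction, 9.64% as higher and 9.46% as lower, by edgeR's quasi-likelihood test at a Benjamini-Hochberg adjusted p under 0.05. These totals depended on single libraries and on the scaling. With 1 library left out, 524 genes (without IRF8KO replicate 3) to 2168 genes (without WT replicate 3) were called higher and 386 to 1835 lower in the same order, and library size alone gave 652 higher and 1914 lower. The median log2 fold change was 3.05 over the 8 tested receptors, the same with Clec4d, which had 0 counts in WT, set at the bound given with it, and −0.11 over all genes tested. These counts are a description, since Clec4n, Clec12a and Clec4d passed the expression filter through the IRF8KO libraries, which favours a difference. Clec4n and Clec12a cleared the filter's level in 1 WT library each and Clec4d in none. The same 5 risers, and no other receptor, were called in 16 of 17 alternative analyses. For all 5, each IRF8KO library lay above each WT library, a pattern that 20.0% of the tested genes showed, with 17.9% showing the reverse and no tested receptor among them. Summed over the 10 genes, the level was 96.7, 108 and 48.4 CPM in WT replicates 1, 2 and 3 and 600.5, 612 and 625 CPM in the IRF8KO replicates in the same order.

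**Figure D1:**
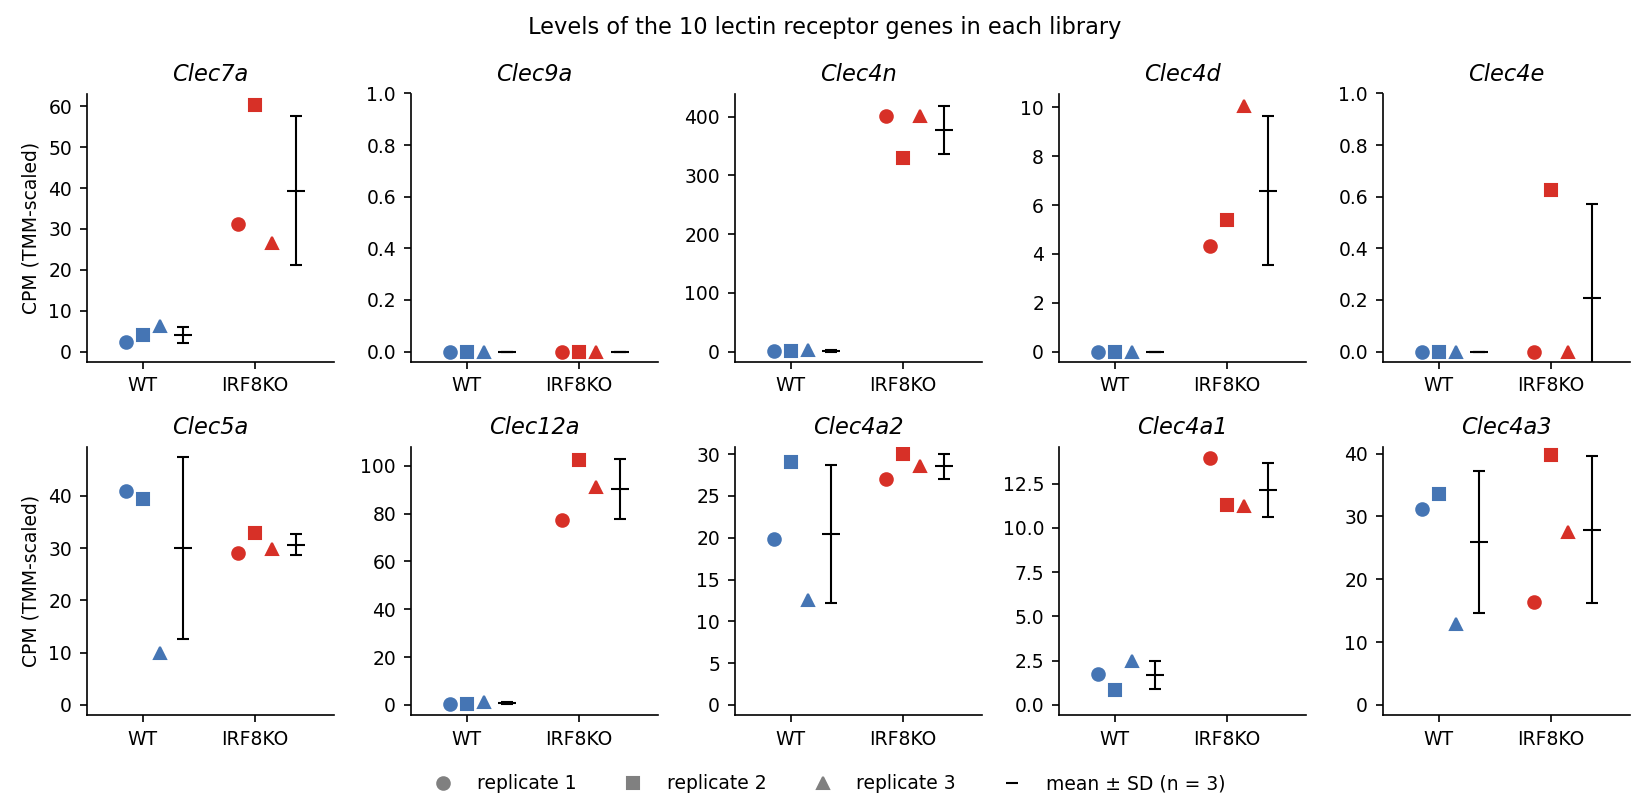
CPM on TMM-scaled library size (vertical axes, each starting at 0 and differing between panels) of the 10 receptor genes in every library, with the replicate shown by the symbol and the mean ± SD (n = 3) in black. Clec4n reached 329 to 401 CPM in IRF8KO and at most 3.03 CPM in WT, while Clec5a, Clec4a2 and Clec4a3 overlapped between genotypes.

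The activating receptor with the highest level in IRF8KO was Clec4n, which encodes Dectin-2, a receptor for fungal mannans that signals through Fcer1g. Clec4n (ENSMUSG00000023349.14; GRCm38 chr6:123229843-123247021, plus strand) was read at 0.194, 0.353 and 3.03 CPM in WT replicates 1, 2 and 3, and at 401, 329 and 400 CPM in the IRF8KO replicates. The WT libraries held 28 counts in total against 9884 in IRF8KO, and the groups did not overlap. Its mean rose from 1.19 ± 1.59 to 377 ± 41.3 CPM (SD, n = 3), with a log2 fold change of 8.34 (SE 0.717, edgeR adjusted p = 1.85e-05). WT replicate 3 held 22 of the 28 WT counts, and the log2 fold change was 10.23 without that library and 7.75 without WT replicate 2.

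Clec4d lies next to Clec4n and encodes MCL, also known as Dectin-3, a glycolipid receptor that works with Mincle. Clec4d (ENSMUSG00000030144.4; chr6:123262111-123275265, plus strand) had 0 counts in every WT library and 27, 60 and 93 counts in IRF8KO replicates 1, 2 and 3, which are 4.32, 5.37 and 10.1 CPM. The IRF8KO libraries were all clearly above 0, though they differed among themselves. Measured against a floor of 3 counts over the WT group, Clec4d was at least 59.8-fold higher in IRF8KO (edgeR adjusted p = 0.000964). Without WT replicate 2, the deepest WT library, this bound was 27.96-fold. Clec4e (ENSMUSG00000030142.10; chr6:123281789-123289870, minus strand), the gene of its partner Mincle, stood in contrast: it had 0 counts in 5 libraries and 7 counts, or 0.627 CPM, in IRF8KO replicate 2. That is the library with the most neutrophil granule transcripts, whose part in this value was not tested. Clec4e had too few counts for the test.

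Clec7a encodes Dectin-1, the receptor for fungal beta-glucan, which carries its own signalling motif. Clec7a (ENSMUSG00000079293.11; chr6:129461591-129472779, minus strand) was read at 2.33, 3.96 and 6.19 CPM in WT replicates 1 to 3 and at 31.2, 60.3 and 26.6 CPM in IRF8KO. Every IRF8KO library was above every WT library, with replicate 2 the highest. The mean rose from 4.16 ± 1.94 to 39.4 ± 18.2 CPM (SD, n = 3), and the log2 fold change was 3.23 (SE 0.469, edgeR adjusted p = 0.000715). Without IRF8KO replicate 2 the log2 fold change was 2.79 (edgeR adjusted p = 0.00384). The annotation used classes this gene as a polymorphic pseudogene, a class for genes that are intact in some mouse strains and broken in others.

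Clec5a, which encodes the DAP12-associated receptor MDL-1, showed no such rise. Clec5a (ENSMUSG00000029915.14; chr6:40574894-40585821, minus strand) was read at 41.0, 39.3 and 9.90 CPM in WT replicates 1 to 3 and at 29.1, 32.9 and 29.9 CPM in IRF8KO. The IRF8KO values were tight and lay between the high and the low WT libraries, so the groups overlapped. Its log2 fold change was 0.03 (SE 0.444, edgeR adjusted p = 0.973), with a 95% interval from −1.20 to 1.26, which leaves room for a change of about the size of either bound. The sign of this small value turned in 7 of 17 alternatives. Without WT replicate 3 it was −0.35.

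The inhibitory receptor gene Clec12a also rose. It encodes MICL, which recognises uric acid crystals and carries an inhibitory tyrosine motif. Clec12a (ENSMUSG00000053063.11; chr6:129342691-129365303, plus strand) was read at 0.388, 0.424 and 1.38 CPM in WT replicates 1 to 3 and at 77.2, 102 and 91.0 CPM in IRF8KO. The WT values came from 18 counts in total and the IRF8KO values from 2467, and the groups were far apart. The mean rose from 0.729 ± 0.560 to 90.2 ± 12.6 CPM (SD, n = 3), with a log2 fold change of 6.97 (SE 0.476, edgeR adjusted p = 3.38e-06). WT replicate 3 held 10 of the 18 WT counts, and the log2 fold change was 7.77 without it.

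The 3 DCIR genes examined, from the family named after the dendritic cell immunoreceptor, were not all called. Clec4a1 (DCIR4; ENSMUSG00000049037.8; chr6:122921848-122934619, plus strand) was read at 1.75, 0.848 and 2.48 CPM in WT replicates 1 to 3 and at 13.9, 11.3 and 11.3 CPM in IRF8KO. All IRF8KO libraries exceeded the highest WT library. Its mean rose from 1.69 ± 0.815 to 12.2 ± 1.54 CPM (SD, n = 3), and the log2 fold change was 2.87 (SE 0.558, edgeR adjusted p = 0.00422).

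Clec4a2 (DCIR1; ENSMUSG00000030148.15; chr6:123106428-123143999, plus strand), the member with a classical inhibitory motif, was read at 19.8, 29.0 and 12.5 CPM in WT and at 27.1, 29.99 and 28.6 CPM in IRF8KO, replicates 1 to 3. WT replicate 2 reached the IRF8KO level and the other WT libraries were below it. Its log2 fold change was 0.48 (SE 0.354, edgeR adjusted p = 0.375), with a 95% interval from −0.51 to 1.46. Under library size scaling without TMM the sign turned, to −0.074. Clec4a2 is also the receptor with the most sequence in common with other genes: 6.69% of the 50-base stretches of its transcripts occur in another gene, Clec4a4 and Clec4b1 among them, so part of its reads may not have been counted.

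Clec4a3 (DCIR3; ENSMUSG00000043832.13; chr6:122952515-122969875, plus strand) was read at 31.2, 33.6 and 12.9 CPM in WT replicates 1 to 3 and at 16.3, 39.7 and 27.5 CPM in IRF8KO. Both groups spread widely and overlapped. The log2 fold change was 0.11 (SE 0.426, edgeR adjusted p = 0.889), with a 95% interval from −1.07 to 1.29, and it was −0.15 without WT replicate 3 and −0.23 without IRF8KO replicate 2.

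Clec9a (ENSMUSG00000046080.17; chr6:129408862-129424763, plus strand) encodes DNGR-1, which binds the actin of dead cells and marks conventional type 1 dendritic cells. It had 0 counts in all 6 libraries, which allows levels of up to 0.212 to 0.582 CPM per library at a floor of 3 counts. Xcr1, a chemokine receptor of the same dendritic cells, was at most 0.582 CPM in any library.

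**Figure D2:**
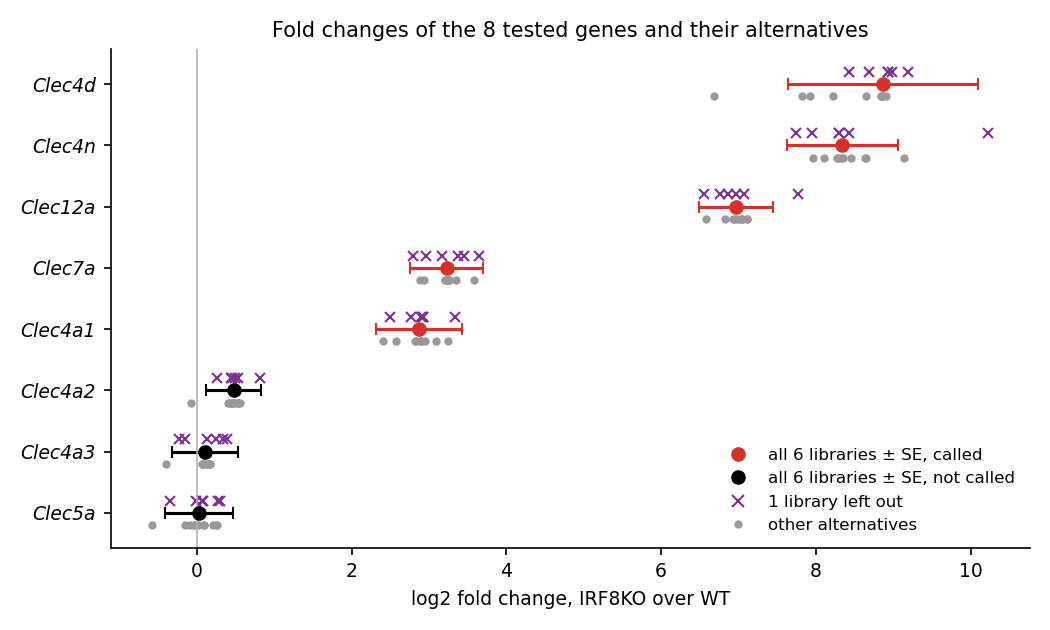
Log2 fold change of IRF8KO over WT (horizontal axis) for the 8 tested receptor genes, with the SE from all 6 libraries, values with 1 library left out as crosses and other alternatives as small points. Clec4d had 0 counts in WT, so its position is a fitted value and not a measured fold. The other 4 called genes stayed at 2.41 or above in every alternative that tested them, and Clec4a2, Clec4a3 and Clec5a lay on both sides of 0.

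The make-up of the family differed between genotypes. Levels of different genes are compared here as CPM per kilobase (kb) of exon. In WT, Clec4a3 led at 19.5 ± 8.52 CPM per kb (SD, n = 3), followed by Clec5a at 7.83 ± 4.55 and Clec4a2 at 6.99 ± 2.83 CPM per kb, and the latter pair did not differ beyond their spread. Clec7a at 1.58 ± 0.735, Clec4a1 at 1.08 ± 0.523 and Clec4n at 0.839 ± 1.12 CPM per kb came next, again with overlapping spreads, and Clec12a was at 0.132 ± 0.101 CPM per kb. In IRF8KO, Clec4n led at 265 ± 29.1 CPM per kb, far above Clec4a3 at 20.99 ± 8.83, Clec12a at 16.3 ± 2.29 and Clec7a at 14.9 ± 6.91 CPM per kb, whose spreads overlapped. Clec4a2 at 9.75 ± 0.501, Clec5a at 7.98 ± 0.526, Clec4a1 at 7.80 ± 0.987 and Clec4d at 4.12 ± 1.91 CPM per kb followed.

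As shares of the summed CPM per kb, Clec4a3 held 54.5%, 52.9% and 42.5% in WT replicates 1, 2 and 3, and Clec4n held 80.9%, 69.7% and 78.3% in IRF8KO. WT replicate 3 differed from the other WT libraries in make-up as well. Its Clec4n share was 9.30% against 0.316% and 0.520%, and its Clec7a share was 10.2% against 2.04% and 3.14%. In that library the 4 risers detected in WT (Clec4n, Clec12a, Clec7a and Clec4a1) had their highest WT level, and Clec5a, Clec4a2 and Clec4a3 had their lowest.

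**Figure D3:**
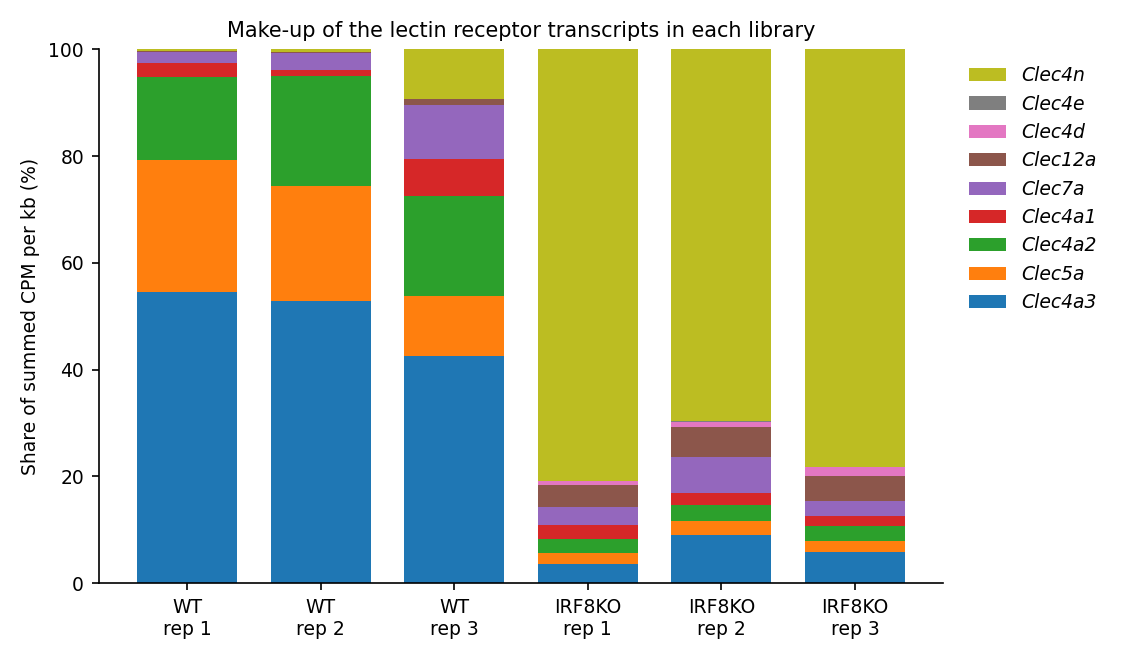
Share of each receptor gene in the summed CPM per kb of the family (vertical axis, percent) in each of the 6 libraries. Clec4a3 is the largest block in every WT library and Clec4n, with 69.7% to 80.9%, in every IRF8KO library.

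All 10 genes lie on chromosome 6, most of them in clusters. One cluster holds, in order, Clec4a1, Clec4a3, Clec4a2, Clec4n, Clec4d and Clec4e, another holds Clec12a, Clec9a and Clec7a, and Clec5a lies apart. In the first cluster, Clec4a3 and Clec4a2, which were not called, lie between Clec4a1 and Clec4n, which rose. Of 39 protein-coding neighbours, lying between the outermost members of a cluster or within 250 kb of a member, 8 were tested and none was called by edgeR, against 19.1% of all genes tested. The neighbour with the highest mean CPM was C3ar1, the receptor for complement fragment C3a, which is separated from Clec4a1 by Necap1. Its unadjusted p in edgeR was 0.0275. C3ar1 was read at 232, 234 and 187 CPM in WT and at 343, 322 and 375 CPM in IRF8KO, replicates 1 to 3, a log2 fold change of 0.67 (edgeR adjusted p = 0.1001). It was called by DESeq2 (adjusted p = 0.0326) and by edgeR without WT replicate 3 (adjusted p = 0.0219). The lectin genes interleaved with the receptors were at or near 0: Clec4a4 had 3 counts in WT and 9 in IRF8KO, Clec4b1 had 0 and 11, Clec1b had 5 and 14, and Clec4b2, Clec12b and Clec1a had none.

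**Figure D4:**
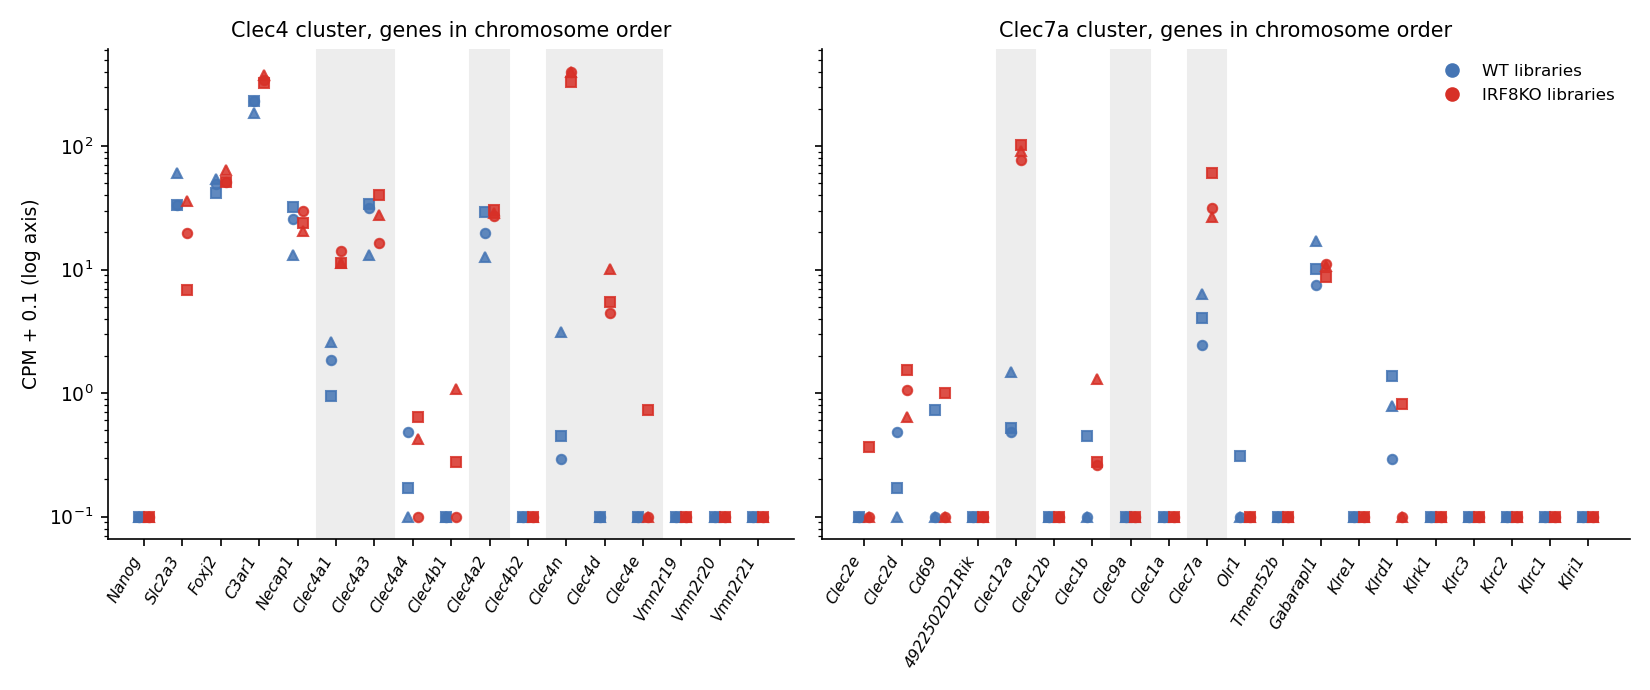
CPM plus 0.1 on a log axis for every protein-coding gene around the Clec4 and Clec7a clusters, in chromosome order (to scale in order only), with WT libraries in blue, IRF8KO libraries in red and the receptor genes shaded; points on the bottom line had 0 counts. Clec4n and Clec12a stand next to lectin genes at or near 0, such as Clec4b2 and Clec12b.

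Promoter sequence was looked at because IRF8 binds DNA with the ETS factor PU.1 at composite elements. RefSeq windows of 300 bases (250 before and 50 after the annotated start, GRCm38.p6) were found for 9 of the 10 receptor genes, all but Clec4n. They were searched on both strands for GGAANNGAA (an ETS-IRF composite core), GAAANNGAA (an interferon response core), GAGGAAGT (a PU.1 core) and TGANTCA (an AP-1 core); none of these was made to exclude overlap with another. The ETS-IRF core matched in Clec7a, Clec4a1 and Clec5a, and in 8.24% of all 32851 windows. The interferon response core matched in Clec4d and Clec9a, and in 8.56% of all windows. The AP-1 core matched in Clec4a2 and Clec12a, and in 7.81% of all windows, but the windows of these genes lie inside the gene spans of the annotation used for counting. The PU.1 core, present in 3.20% of windows, matched in no receptor window, and Clec4a3 and Clec4e had no match to any of the 4. A match is a description of letters, not a binding site.

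The windows of Clec7a (chr6:129472730-129473029, minus strand), Clec4a1 (chr6:122921598-122921897, plus strand), Clec5a (chr6:40585756-40586055, minus strand) and Clec4d (chr6:123261857-123262156, plus strand) are shown 5′ to 3′ because they hold the IRF-type matches of receptors with measurable transcripts. Capitals mark the match, which in all 4 reads as the reverse complement of the motif.
Clec7a: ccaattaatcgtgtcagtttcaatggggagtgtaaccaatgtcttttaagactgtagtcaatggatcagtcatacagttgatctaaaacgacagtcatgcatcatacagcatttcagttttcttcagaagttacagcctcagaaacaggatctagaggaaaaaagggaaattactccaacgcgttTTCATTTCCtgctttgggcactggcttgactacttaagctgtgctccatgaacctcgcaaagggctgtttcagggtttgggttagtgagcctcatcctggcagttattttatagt
Clec4a1: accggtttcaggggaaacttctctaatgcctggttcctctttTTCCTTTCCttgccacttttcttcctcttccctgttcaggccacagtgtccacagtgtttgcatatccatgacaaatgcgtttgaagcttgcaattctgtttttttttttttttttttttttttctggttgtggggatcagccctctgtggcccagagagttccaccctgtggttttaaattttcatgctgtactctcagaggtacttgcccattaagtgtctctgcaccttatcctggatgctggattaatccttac
Clec5a: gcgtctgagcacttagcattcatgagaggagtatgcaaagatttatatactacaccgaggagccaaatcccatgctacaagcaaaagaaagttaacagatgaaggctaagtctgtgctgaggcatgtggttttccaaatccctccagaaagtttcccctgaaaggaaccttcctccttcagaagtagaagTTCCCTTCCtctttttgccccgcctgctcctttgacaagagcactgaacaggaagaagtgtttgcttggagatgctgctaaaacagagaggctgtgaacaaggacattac
Clec4d: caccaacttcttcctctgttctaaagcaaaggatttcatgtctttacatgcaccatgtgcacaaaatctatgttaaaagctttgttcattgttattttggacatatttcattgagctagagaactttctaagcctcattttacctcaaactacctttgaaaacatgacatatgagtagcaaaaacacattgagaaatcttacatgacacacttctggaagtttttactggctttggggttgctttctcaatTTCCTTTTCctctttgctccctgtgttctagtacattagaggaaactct
The Clec7a match TTCATTTCC begins at position −65 from the annotated start site of the window shown. In the other RefSeq window of this gene it begins at −59 from the start site. The Clec5a match TTCCCTTCC begins at −60 from its start site and the Clec4a1 match TTCCTTTCC at −208. The Clec4d match TTCCTTTTC begins 1 base after the annotated start base. The same core thus stood before genes that rose, Clec7a and Clec4a1, and before Clec5a, which was not called.

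The adaptors through which these receptors signal were also higher. Of 37 signalling genes, 36 were tested, 6 rose, 5 fell and 25 were not called, beside 9.64% of all genes called higher and 9.46% called lower. The median log2 fold change of the list was −0.57, against −0.11 over all genes tested. Fcer1g, the partner of Dectin-2, MCL and Mincle, was read at 770, 1016 and 1533 CPM in WT replicates 1 to 3 and at 4269.9, 2828 and 4087 CPM in IRF8KO, a log2 fold change of 1.75 (SE 0.373, edgeR adjusted p = 0.00712). Tyrobp, the partner of MDL-1, rose from 2218 ± 1049.6 to 6955 ± 1235 CPM (log2 fold change 1.65, SE 0.411, edgeR adjusted p = 0.0159). Hcst had the largest log2 fold change of the list at 2.82 (SE 0.379, edgeR adjusted p = 0.000422), from 15.5 ± 8.12 to 109 ± 17.2 CPM. No adaptor library in WT reached the lowest IRF8KO library. Tyrobp missed the threshold with 1 library left out in 4 of 6 cases (edgeR adjusted p up to 0.0975), and Fcer1g in 1 of 6, without IRF8KO replicate 3 (edgeR adjusted p = 0.0555).

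Further down the pathway the genes went both ways. The non-canonical NF-κB subunits rose: Nfkb2 went from 20.8 ± 6.18 to 87.8 ± 14.3 CPM (log2 fold change 2.07, edgeR adjusted p = 0.000887), with 18.1% of its exonic length shared with other genes, and Relb from 33.9 ± 12.1 to 108 ± 34.8 CPM (log2 fold change 1.66, edgeR adjusted p = 0.00643). The phosphatase gene Ptpn11 rose from 9.37 ± 1.45 to 28.1 ± 6.42 CPM (log2 fold change 1.58, edgeR adjusted p = 0.00935). The Ptpn11 call was lost without IRF8KO replicate 3 (edgeR adjusted p = 0.0696) and with library size alone (log2 fold change 1.06, edgeR adjusted p = 0.109). The kinase gene Lyn fell from 228 ± 80.8 to 86.1 ± 20.7 CPM (log2 fold change −1.41, edgeR adjusted p = 0.0134), and Pik3cd, a catalytic subunit of PI3 kinase, from 369 ± 56.8 to 177 ± 39.2 CPM (log2 fold change −1.06, edgeR adjusted p = 0.0248). The other fallers were Nfkb1, Rubcn and Vav1, with edgeR adjusted p between 0.0392 and 0.0441. Calls on this side were unstable: the list held 0 fallers without WT replicate 2, IRF8KO replicate 1 or IRF8KO replicate 3, 2 without WT replicate 1 or IRF8KO replicate 2, and 11 without WT replicate 3. Between adaptors and NF-κB, Syk was at 191 ± 12.97 CPM in WT and 180 ± 8.97 CPM in IRF8KO (edgeR adjusted p = 0.853), and Card9 at 37.2 ± 12.6 and 48.2 ± 2.90 CPM (edgeR adjusted p = 0.423).

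**Figure D5:**
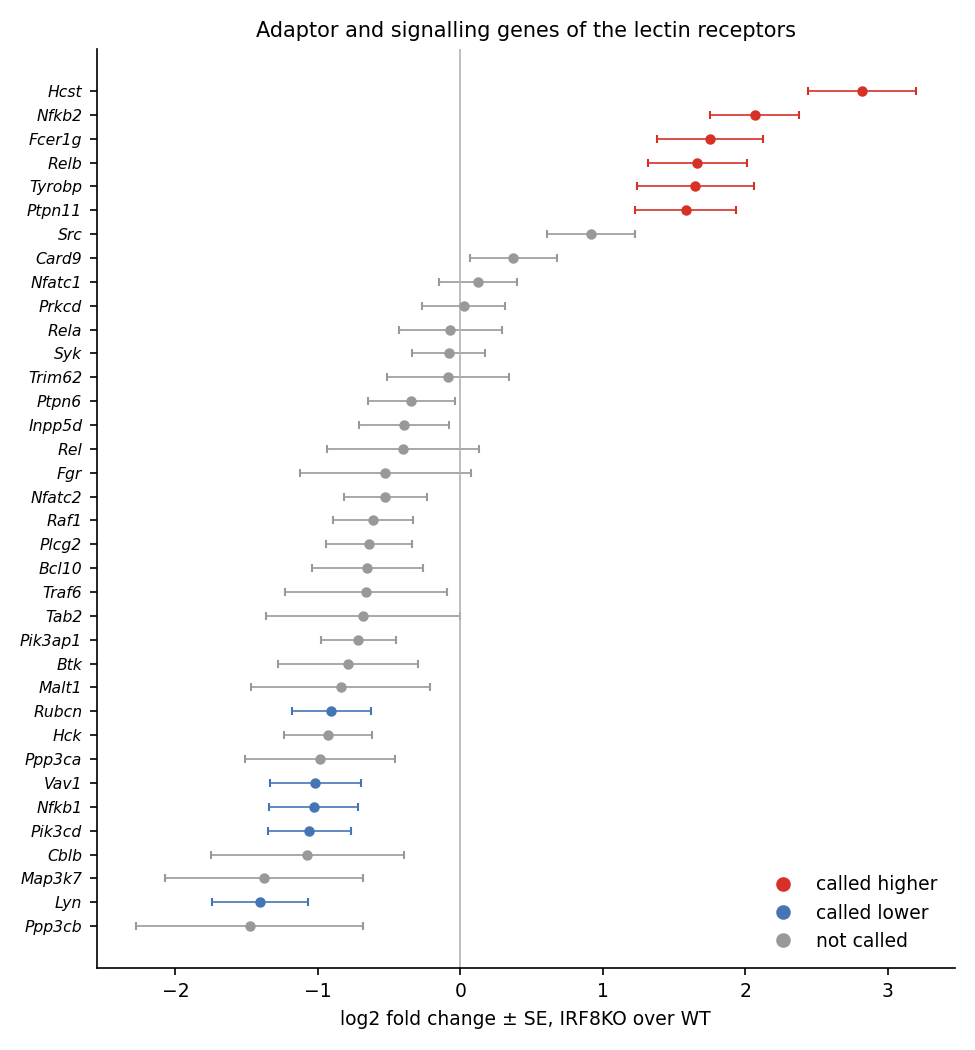
Log2 fold change of IRF8KO over WT ± SE (horizontal axis) for the 36 tested signalling genes, with 6 called higher in red, 5 called lower in blue and 25 not called in grey. Hcst, Nfkb2, Fcer1g, Relb, Tyrobp and Ptpn11 lie at the upper end, and Syk and Card9 near 0.

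Of 15 cytokine and early response genes that such receptors are known to induce, 7 were tested, 1 rose and 3 fell, beside 9.64% of all genes called higher and 9.46% called lower. Il1b, the gene of the cytokine interleukin-1β, was read at 1.94, 3.67 and 1.10 CPM in WT replicates 1 to 3 and at 44.7, 26.8 and 15.6 CPM in IRF8KO, without overlap (log2 fold change 3.63, SE 0.559, edgeR adjusted p = 0.000988; 4.26 without WT replicate 2). The chemokine gene Ccl3 was read at 134, 266 and 21.6 CPM in WT and at 25.8, 7.43 and 12.3 CPM in IRF8KO. WT replicate 3 lay inside the IRF8KO range, yet the decrease passed the test (log2 fold change −3.23, SE 0.730, edgeR adjusted p = 0.00973). Egr2 and Ccl2 also fell (log2 fold changes −5.04 and −2.87, edgeR adjusted p = 0.0256 and 0.0262) with the same overlap. Without IRF8KO replicate 3 none of these 3 was called by edgeR (0 of the list lower, adjusted p from 0.0839 to 0.139). Without WT replicate 2, the highest WT library for all 3, the log2 fold changes were −2.37 for Ccl3 (edgeR adjusted p = 0.0286), −3.75 for Egr2 (0.102) and −1.52 for Ccl2 (0.204). Egr2 missed the threshold in 8 of 14 alternatives, DESeq2 (adjusted p = 0.151) and limma-voom (0.494) among them, and Ccl2 in 6 of 17.

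Other C-type lectin genes gave a mixed picture. Of 46 related genes, 24 had 0 counts in every library and 7 were tested, of which 5 rose and 1 fell, beside 9.64% of all genes called higher and 9.46% called lower. Klrb1b, Colec12 and Mgl2 passed the expression filter through the IRF8KO libraries and Mrc2 through the WT libraries, which favours a difference in these 4. The mannose receptor gene Mrc1 rose from 3.11 ± 0.542 to 39.2 ± 19.0 CPM (log2 fold change 3.67, SE 0.444, edgeR adjusted p = 0.000208). Its relative Mrc2, the collagen receptor Endo180, was read at 25.0, 33.0 and 128 CPM in WT replicates 1 to 3 and at 0, 0.716 and 0 CPM in IRF8KO (log2 fold change −7.69, SE 0.956, edgeR adjusted p = 0.000252). The pair thus moved in opposite directions without overlap of the groups. The Mrc2 value depended on single libraries: it was −6.54 without WT replicate 3, and without IRF8KO replicate 2, the only IRF8KO library with Mrc2 counts, the gene was at least 297-fold lower in IRF8KO against the floor. It was called in both cases. Cd72, an inhibitory lectin best known from B cells, rose from 8.76 ± 0.755 to 38.6 ± 7.82 CPM (log2 fold change 2.13, edgeR adjusted p = 0.000988), though 41.6% of its exonic length is shared with another gene. With the counts of either strand alone, the Cd72 log2 fold change was 1.18 or 1.29, and it stayed called. Neither Klrb1b nor Colec12 had a count in WT, and in IRF8KO they were higher by bounds of at least 44.9-fold and at least 34.6-fold (edgeR adjusted p = 0.00165 and 0.00681). Without WT replicate 2 these bounds were 20.97-fold and 16.2-fold. Colec12 was highest in IRF8KO replicate 2, at 7.16 CPM against 1.76 and 1.41 CPM in the other IRF8KO libraries. Without that library the bound for Colec12 was at least 13.7-fold, from 24 counts, and it remained called (edgeR adjusted p = 0.0298). Of the exonic length of Klrb1b, 26.9% is shared with another gene, so its reads are uncertain. Mgl2 was also called (edgeR adjusted p = 0.0435), but missed the threshold in 9 of 16 alternatives, and its log2 fold change of 3.85 rests on 5 WT counts, all in WT replicate 3. Without that library Mgl2 was at least 21.01-fold higher in IRF8KO, against the floor.

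Marker genes of several cell types were also compared, and the lists did not move alike. Of 12 genes that mark border-associated macrophages, which reside at the brain's surfaces and vessels, 9 were tested and all 9 rose, beside 9.64% of all genes called higher. Of the 9, Cd163, Mgl2, F13a1 and Ms4a7 passed the expression filter through the IRF8KO libraries, which favours a difference. The list summed to 610 to 834 CPM in WT and 3812 to 5027 CPM in IRF8KO. Nearly all of the WT sum was Stab1, a scavenger receptor gene, at 601, 649 and 821 CPM in WT replicates 1 to 3 and at 2302, 1763 and 1771 CPM in IRF8KO (edgeR adjusted p = 0.00665). Without Stab1 the list summed to 7.91 to 12.9 CPM in WT and 2050 to 2739 CPM in IRF8KO. Pf4 rose from 1.79 ± 0.933 to 1877 ± 321 CPM (edgeR adjusted p = 1.12e-06). Mrc1 and Mgl2 are in both this list and that of related lectins. Lyve1 and Cd209f had 0 counts in every library, and Folr2 had 2 counts in each genotype, an uncertain value since 63.1% of its exonic length is shared with another gene. Of 12 microglial markers, 5 fell and 1 rose, beside 9.46% of all genes called lower and 9.64% called higher, with summed levels of 44811 to 76798 CPM in WT and 36942 to 51991 CPM in IRF8KO. Sall1, a transcription factor gene of microglia, was at 107 ± 49.2 CPM in WT and at 0 in IRF8KO, while Tmem119 was at 13459 ± 5966 and 6542 ± 2105 CPM (edgeR adjusted p = 0.116). Sall1 passed the expression filter through the WT libraries, which favours a difference. The part of these markers in the rise of the receptors was not tested.

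Monocyte markers summed to 0.413 to 1.48 CPM in WT and to 4.32, 56.8 and 4.98 CPM in IRF8KO replicates 1 to 3. The high sum of IRF8KO replicate 2 included Chil3 at 34.6 CPM, which was at 0 in every other library, and Hp at 9.31 CPM. Among the other monocyte markers, Ccr2 was at most 0.848 CPM, and Ly6c2 was at 0 in all libraries but IRF8KO replicate 2, which had 2.78 CPM. Of these markers Fn1 was the only one tested, and it rose from 0.0694 ± 0.0688 to 3.09 ± 1.37 CPM (edgeR adjusted p = 0.00665). The 12 neutrophil markers summed to 649 to 998 CPM in WT and 869 to 1367 CPM in IRF8KO, most of it Csf3r, which was expressed in all libraries. Without Csf3r they summed to 0, 0.141 and 1.24 CPM in WT and to 5.44, 374 and 2.06 CPM in IRF8KO, so the groups did not overlap and IRF8KO replicate 2 was far above the rest. Cxcr2, a chemokine receptor gene of neutrophils, had 0 counts in WT and 10, 46 and 16 counts in IRF8KO replicates 1 to 3 (edgeR adjusted p = 0.00709). Fn1 and Cxcr2 passed the expression filter through the IRF8KO libraries, which favours a difference. IRF8KO replicate 2 was the library with the most neutrophil granule transcripts. Without it, the log2 fold changes were 8.43 for Clec4n, 6.87 for Clec12a and 2.93 for Clec4a1. Clec4d was then at least 68.7-fold higher, and all 4 remained called by edgeR (adjusted p from 2.3e-05 to 0.011). Of these, Clec4n, Clec12a and Clec4d passed the expression filter through the IRF8KO libraries. The part of neutrophils in the receptor values was not tested. Dendritic cell markers summed to 491 to 788 CPM in WT and 462 to 544 CPM in IRF8KO, with Cd209a and Ccr7 at 0 everywhere and Flt3 at most 1.695 CPM. Most of these sums was Fscn1, at 396, 325 and 639 CPM in WT replicates 1 to 3 and at 333, 320 and 252 CPM in IRF8KO (edgeR adjusted p = 0.222). Without Fscn1 the list summed to 189, 166 and 149 CPM in WT and to 211, 215 and 211 CPM in IRF8KO, so every IRF8KO library was then above every WT library. Of 7 tested dendritic cell markers, 2 rose and 2 fell, beside 9.64% of all genes called higher and 9.46% called lower. Both fallers passed the expression filter through the WT libraries, which favours a difference. Itgae also passed through the WT libraries and was not called (log2 fold change −1.66, edgeR adjusted p = 0.162). Zbtb46 rose from 4.61 ± 1.23 to 25.7 ± 4.15 CPM and Wdfy4 from 42.2 ± 6.87 to 94.5 ± 9.43 CPM (edgeR adjusted p = 0.00137 and 0.0111). Batf3 fell from 23.0 ± 1.86 to 1.002 ± 1.23 CPM and Naaa from 28.6 ± 11.6 to 0.811 ± 0.131 CPM (edgeR adjusted p = 0.00246 and 5.15e-05). Lymphocyte markers summed to 4.81 to 12.8 CPM in WT and 0.160 to 2.51 CPM in IRF8KO. Il7r, a cytokine receptor gene, made up nearly all of the WT sum, at 10.9, 12.6 and 4.401 CPM in WT replicates 1 to 3 and at 0 in IRF8KO. It was the only lymphocyte marker tested and it fell (edgeR adjusted p = 0.000525), having passed the filter through the WT libraries. Without Il7r, lymphocyte markers summed to at most 0.413 CPM in WT and to 0.160, 2.51 and 0.866 CPM in IRF8KO replicates 1 to 3.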

How the data were processed

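Poly(A) RNA of sorted microglia was profiled in 6 libraries, 3 per genotype, with SMART-Seq v4 cDNA and Nextera XT tagging per the labels' protocols, a chemistry that keeps no strand and adds no molecular identifiers. The deposited files hold raw read counts per gene in the layout of the aligner STAR. The submitters' processing notes name bcl2fastq, STAR 2.5.2b, Picard 2.17.11, Subread, featureCounts and the build mm10; the annotation release was not given in the sources used here. The count that ignores strand was used. The 4 summary lines stayed out of library sizes (reads outside genes, 2.44% to 7.70% of uniquely mapped reads; reads on several genes, 8.20% to 10.8%). Of 49585 gene identifiers, 49326 matched GENCODE M21 on GRCm38, which gave symbols, positions and exonic lengths, and 259 did not.

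Counts were filtered (edgeR's default filter, minimum count 10), TMM-scaled and tested with edgeR 4.0.16 in R 4.3.3 (quasi-likelihood test, genotype as the only term). P-values were adjusted by Benjamini-Hochberg over all 11041 genes tested and called under 0.05. The 95% intervals of log2 fold changes use the SE and 4 residual degrees of freedom. Where a group had 0 counts, a fold is a bound against 3 counts over the group; floors and counting errors do not cover PCR. The fitting code was tested on simulated data. Protein sequences were not used here. The named genes are the 10 receptors, Irf8, up to 8 called genes by smallest p and the 2 with the highest mean CPM of each list of related lectins, signalling genes, induced genes and neighbours, and of the marker lists the highest genes and those at 0; Syk, Card9, Nfkb1, Rubcn, Vav1, Slc2a3, Apoe, Xcr1, Flt3, Ccr2, Il7r, Ms4a7, F13a1, Cd163, the called monocyte, neutrophil and dendritic cell markers, the interleaved lectins and the markers named for 1 library were added after their values were seen. The members and lists were chosen with earlier results of these data known. The labels give each library its own brain, and no 2 libraries of a genotype agreed within sampling noise. Alternatives used DESeq2 1.42.0, limma 3.58.1, other scalings and filters, either strand's counts, the replicate number as a block and each library left out.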

Additional observations from a re-analysis of the deposited data

How the results depend on the processing

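The 5 receptor calls held in every alternative except a filter asking for at least 10 counts in every library, which only 4 receptors pass and which left 1 call, Clec7a. Signs of receptors that were not called turned with library size alone (Clec4a2 −0.074, Clec4a3 −0.40, Clec5a −0.58, and the neighbour Foxj2 −0.28), a scaling that moves the median of all genes to −0.61. Clec5a also turned with library size without Apoe (−0.0929), upper-quartile scaling (−0.0422), at least 10 counts in every library (−0.0194) and strand column 1 (−0.15). With 1 library left out, Clec4a3 ranged from −0.23 to 0.39 and Clec5a from −0.35 to 0.29.

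Over all genes, library size alone gave 652 genes higher and 1914 lower; with 1 library left out the counts ranged from 524 to 2168 and from 386 to 1835, the highest without WT replicate 3. Related lectins called higher fell to 2 with at least 10 counts in every library or with strand column 2, and those called lower to 0 with the first. Signalling genes called lower were 3 with DESeq2 size factors and 12 with library size alone, and with 1 library left out they ranged from 0 to 11, with 3 to 8 higher. Induced genes called higher were 3 with no filter, 0 with at least 10 counts in every library, 2 with DESeq2, limma-voom or the block, and 1 to 2 with 1 library left out; those called lower were 1 with library size without Apoe or limma-voom, and 0 to 4 with 1 library left out. Neighbours called higher were 1 with DESeq2 and 0 to 1 with 1 library left out, and 1 was lower (Slc2a3) with no filter or the block. The causes were not tested.

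Replicate numbers did not pair the samples: deviations of same-numbered libraries correlated at −0.32, 0.38 and 0.14, and WT replicate 1 was closest to IRF8KO replicate 2 (0.42). With the replicate number as a block, the same 5 receptors were called. Depth limits Clec9a, Clec4e and the WT levels of Clec4n, Clec12a and Clec4d, which rest on 0 to 28 counts.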
